A study of Homo sapiens with 7 samples.

Results

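The genes of cholesterol and fatty acid synthesis were followed in 2 lymphoma lines exposed to a BTK inhibitor. The 31 genes were taken by symbol from a list of pathway genes, out of 22257 genes in the deposited tables, and all 31 were present in both lines' tables. They comprised 17 genes of the sterol branch, 8 of the fatty acid branch, and 6 regulators that control these branches or carry sterols. The cells were RL and JeKo-1, which the submitters describe as lines of mantle cell lymphoma, a cancer of mature B cells that typically overproduces cyclin D1. Both were grown in RPMI medium with serum. The treated cells received for 6 h an agent labelled only as a BTK inhibitor, which the series title names as ibrutinib; neither dose nor vehicle is given. BTK relays signals from the B-cell receptor, and ibrutinib is a covalent blocker of this kinase. For RL there were 2 untreated control libraries and 2 treated ones. For JeKo-1 there were 2 treated libraries and a single untreated control (n = 1).

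Cells make cholesterol from acetyl-CoA through mevalonate, squalene and lanosterol, and make fatty acids from the same acetyl-CoA through malonyl-CoA. Both branches are switched on by the SREBP transcription factors, which are held in the endoplasmic reticulum by SCAP and INSIG proteins when sterols are plentiful, and are cleaved and sent to the nucleus when sterols run short. Growing lymphocytes are known to raise these genes when they enter the cell cycle, as new membranes are needed. SREBPs bind sterol regulatory elements in promoters, commonly beside boxes for the factors NF-Y and Sp1.

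The deposited read counts are per RefSeq transcript; of a gene's transcripts, the 1 with the most reads on average across all 7 libraries is used. With 1 transcript per gene, the libraries held 19.1 to 33.5 M counts. The 31 genes had between 221 and 24151 counts in every library, and all 31 passed the filter on low counts in both lines. Levels are in CPM, the count of a transcript scaled to a fixed library total within a line. A fold change is given on the log2 scale with its standard error, and adjusted p-values are those of edgeR's quasi-likelihood test over all transcripts. A gene is called when its adjusted p is under 0.05. Separate cultures are not stated for the libraries of a group, so the p-values reflect only library-to-library spread, possibly technical. For JeKo-1 the control is a single library, and what is particular to that library cannot be told apart from the effect of the inhibitor. Both treated JeKo-1 libraries lay on the same side of this control for each of the 31 genes, also where no change was called. Lying above or below the control in JeKo-1 therefore does not set a gene apart. The spread in JeKo-1 comes from the 2 treated libraries alone and is pooled over genes, so it is not each gene's own. Adjusted p-values are therefore not comparable between the lines, and a smaller one in JeKo-1 is not stronger evidence. The summed level of 7 B-cell markers was between 2500 and 2946 CPM in RL libraries and between 932 and 965 CPM in JeKo-1 libraries. In JeKo-1 4 of these 7 fell and 2 rose, where 14.9% of all tested genes fell and 13.4% rose. In RL 1 fell and 2 rose, where 15.3% of all tested genes fell and 15.1% rose. Their part in the results below was not tested. CCND1 and SOX11 were present in both lines, and CD5 reached at most 0.258 CPM in JeKo-1. The 8 T and NK cell markers summed to at most 0.750 CPM and the 8 myeloid markers to at most 3.08 CPM in any library. For the 8 epithelial and stromal markers the RL sums were 121 to 137 CPM, most of it EPCAM and VIM, and the JeKo-1 sums were 17.0 to 18.2 CPM, nearly all VIM.

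Promoter sequences of 7 members are printed to show what the boxes look like in genes that the results below describe in detail. They come from RefSeq (GRCh38.p14) and cover the 200 bases before the transcription start, 5′ to 3′. Capitals mark the sterol regulatory element TCACNCCAC, the NF-Y box CCAAT, the GC box GGGCGG that Sp1 binds and the E-box CACGTG, each on either strand. For HMGCS1 and DHCR7, which have 2 listed starts each, the start with the most NF-Y boxes is shown. The other start of each held no NF-Y box from 250 bases before to 50 after it.
HMGCS1 promoter (chr5:43313413-43313612, minus strand): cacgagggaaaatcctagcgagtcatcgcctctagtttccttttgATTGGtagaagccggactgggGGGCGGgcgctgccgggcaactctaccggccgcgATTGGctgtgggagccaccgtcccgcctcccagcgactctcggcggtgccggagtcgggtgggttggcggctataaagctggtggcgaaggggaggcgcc
DHCR7 promoter (chr11:71448394-71448593, minus strand): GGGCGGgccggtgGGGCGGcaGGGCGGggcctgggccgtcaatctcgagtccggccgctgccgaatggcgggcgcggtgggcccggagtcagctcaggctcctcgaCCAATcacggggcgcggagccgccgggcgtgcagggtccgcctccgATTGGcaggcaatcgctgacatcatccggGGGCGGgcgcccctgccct
INSIG1 promoter (chr7:155297678-155297877, plus strand): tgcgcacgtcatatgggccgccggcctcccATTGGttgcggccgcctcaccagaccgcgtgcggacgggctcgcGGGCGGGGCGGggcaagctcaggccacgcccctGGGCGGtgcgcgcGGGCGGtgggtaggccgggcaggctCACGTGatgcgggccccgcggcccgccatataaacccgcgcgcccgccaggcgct
SREBF2 promoter (chr22:41832905-41833104, plus strand): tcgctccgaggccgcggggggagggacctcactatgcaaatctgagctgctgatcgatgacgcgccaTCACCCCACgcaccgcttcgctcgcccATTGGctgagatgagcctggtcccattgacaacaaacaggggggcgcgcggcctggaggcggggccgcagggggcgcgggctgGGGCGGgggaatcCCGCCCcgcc
LSS promoter (chr21:46228775-46228974, minus strand): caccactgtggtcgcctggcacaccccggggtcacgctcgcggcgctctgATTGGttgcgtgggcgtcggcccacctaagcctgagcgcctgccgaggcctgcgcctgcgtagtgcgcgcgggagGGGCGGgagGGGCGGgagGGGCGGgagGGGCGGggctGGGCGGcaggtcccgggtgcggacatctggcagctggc
ELOVL6 promoter (chr4:110198616-110198815, minus strand): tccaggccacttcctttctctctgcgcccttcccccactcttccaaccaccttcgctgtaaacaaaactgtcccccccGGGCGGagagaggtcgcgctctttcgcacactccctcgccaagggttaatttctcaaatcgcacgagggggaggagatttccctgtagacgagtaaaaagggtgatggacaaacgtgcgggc
AACS promoter (chr12:125065235-125065434, plus strand): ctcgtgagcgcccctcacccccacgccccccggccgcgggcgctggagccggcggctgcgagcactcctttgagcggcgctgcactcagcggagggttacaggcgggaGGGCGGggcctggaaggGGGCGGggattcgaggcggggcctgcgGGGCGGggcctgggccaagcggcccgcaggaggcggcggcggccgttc

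A promoter of 250 bases before to 50 after the start was listed for 27 of the 31 genes. A gene with several listed starts is counted once, as holding a box if any of its starts does. The NF-Y box was in 19 of these 27 promoters (70.4%), in 43.1% of the promoters of 10049 genes tested in RL and in 39.7% of all 27305. In the sterol branch 12 of 14 held it. GC boxes were in 26 of 27 (96.3%), against 74.4% of the promoters of genes tested in RL and 48.3% of all. The exact sterol element TCACNCCAC was in 1, that of SREBF2, and in 1.39% of all promoters. E-boxes were in 3 (11.1%), against 12.5% of the promoters of tested genes and 8.77% of all. Among genes with a listed promoter that fell in both lines, HMGCS1, DHCR7, ACLY, ACACA, SCD and STARD4 held CCAAT and CYP51A1 did not. Of those called in neither line, MVK, FDPS and TM7SF2 held it, and SCAP and INSIG2 did not. ELOVL6 and AACS had GC boxes and no CCAAT. No relation between boxes and response was tested. These are matches of letters, and no match says only that the letters are not in the window.

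In both lines the inhibitor was followed by lower transcript levels of most of the pathway's called genes, by modest amounts. In RL 16 of the 31 genes (51.6%) fell and 3 rose, where 15.3% of all 14932 tested genes fell and 15.1% rose (30.4% called). In JeKo-1 16 of 31 (51.6%) also fell and 3 rose, where 14.9% of 14050 tested genes fell and 13.4% rose (28.3% called). The members were chosen with earlier results of these data known, so these shares describe the list and test nothing. The median log2 fold change of the 31 genes was -0.28 in RL and -0.20 in JeKo-1, and that of all tested genes was 0.01 and -0.01. Falls of at least 1.5-fold were called for 4 members in RL and 3 in JeKo-1, against 3.75% and 5.64% of all tested genes. Rises of that size were called for 1 member in each line, against 4.01% and 3.05% of all tested genes. Together the 31 genes held 0.453% and 0.454% of the counts in the RL controls and 0.369% and 0.368% in the treated RL libraries. In JeKo-1 they held 0.453% in the control and 0.369% and 0.373% after treatment. Abundant genes weigh most in this share: SCD alone had 22197 of the 109809 member counts in RL control replicate 1. These are bulk samples, in which fewer cells of a type and less RNA per cell cannot be told apart.

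**Figure D1:**
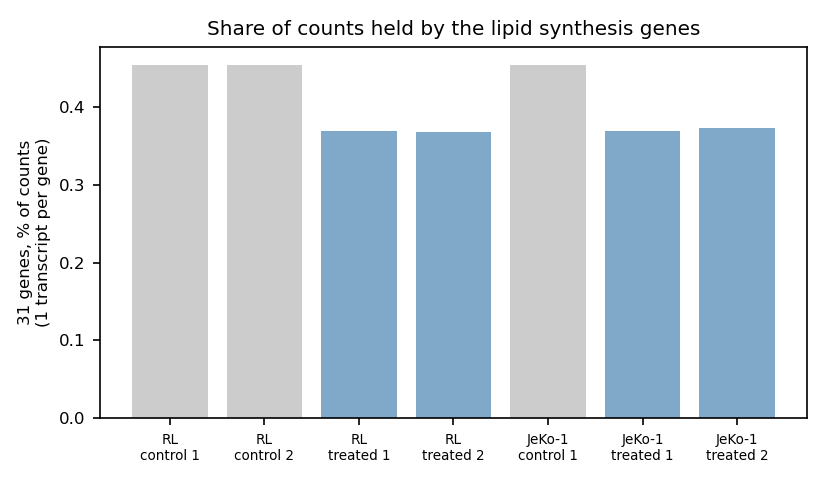
Counts of the 31 lipid synthesis genes as a percentage of all counts with 1 transcript per gene; each bar is 1 library, grey for controls and blue for treated cells. The 3 controls stand at 0.453% to 0.454% and the 4 treated libraries at 0.368% to 0.373%.

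Of the 31 genes, 9 fell in both lines, against 5.15% of the 13394 genes tested in both. They were HMGCS1, FDFT1, CYP51A1 and DHCR7 of the sterol branch, ACLY, ACACA, FASN and SCD of the fatty acid branch, and the sterol carrier gene STARD4. AACS and ELOVL6 rose in both lines, where 4.96% of genes did. LSS and MSMO1 were called in opposite directions, where 2.36% of genes were. A further 6 fell in RL and were not called in JeKo-1 (PMVK, IDI1, SQLE, NSDHL, HSD17B7 and INSIG1), and another 6 fell in JeKo-1 and were not called in RL (MVD, EBP, FADS1, FADS2, SREBF1 and SREBF2). MVK, FDPS, ACAT2, TM7SF2, SCAP and INSIG2 were called in neither line. The difference between the lines' responses was itself tested in a model of all 7 libraries and was called for 13 of the 31 genes, where 17.8% of 15845 tested genes were called.

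**Figure D2:**
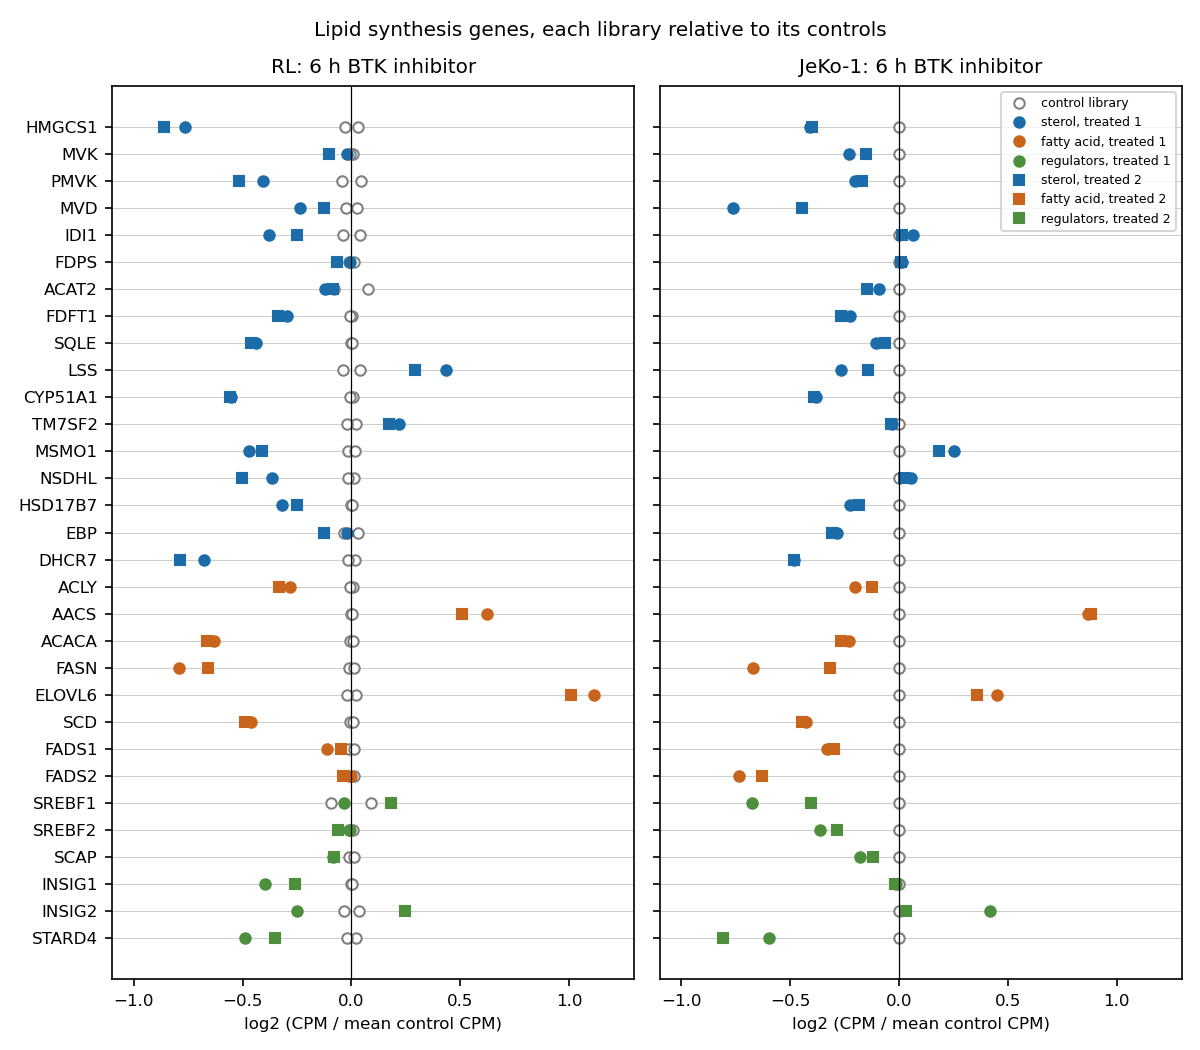
Level of each of the 31 genes in each library, as the log2 ratio of its CPM to the mean CPM of the line's controls. Genes are grouped by branch from top to bottom. Open grey circles are control libraries, filled circles and squares the first and second treated library, coloured by branch. Most treated points lie left of 0 in both panels, while AACS and ELOVL6 lie right of 0 in both and LSS and MSMO1 change sides between the panels.

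The sterol branch opens with the mevalonate steps. Among their genes HMGCS1 had the lowest log2 fold change of the 31 genes in RL, though without RL treated replicate 2 FASN was lower (-0.79 against -0.76). HMGCS1, the cytosolic synthase that makes HMG-CoA, stood at 129.6 and 124 CPM in the RL controls and 74.8 and 69.96 CPM in the treated libraries. All treated values lay below both controls. Its log2 fold change was -0.81 ± 0.05 (adjusted p = 7.35e-07), a loss of 43.1% of the control level (-43.1%). In JeKo-1 HMGCS1 went from 207 CPM to 156 CPM in both treated libraries, a log2 fold change of -0.40 ± 0.06 (adjusted p = 4.19e-09). The fall was smaller in JeKo-1 by a tested difference of 0.42 ± 0.08 (adjusted p = 9.03e-04).

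Of the other mevalonate genes, PMVK, IDI1 and MVD passed the test in 1 line each. PMVK, the kinase that adds the second phosphate to mevalonate, stood at 13.5 and 12.7 CPM in the RL controls and at 9.90 and 9.17 CPM after treatment. The treated RL values of PMVK lay below the controls (-0.47 ± 0.09; adjusted p = 0.00159), and in JeKo-1 its change was -0.19 ± 0.10 (adjusted p = 0.152). IDI1, the isopentenyl diphosphate isomerase, went from 82.5 and 78.1 to 61.8 and 67.4 CPM in RL (-0.31 ± 0.06; adjusted p = 0.00148). In JeKo-1 IDI1 stood at 121 CPM in the control and 126 and 122 CPM in the treated libraries. The responses of IDI1 in the lines differed by 0.36 ± 0.09 (adjusted p = 0.00602). MVD, the decarboxylase that forms isopentenyl diphosphate, went the other way round: its log2 fold change was -0.17 ± 0.08 in RL (adjusted p = 0.141) and -0.59 ± 0.13 in JeKo-1 (adjusted p = 9.13e-05). In JeKo-1 MVD stood at 9.69 CPM in the control and at 5.71 and 7.11 CPM after treatment, with a difference between lines that was not called (adjusted p = 0.0889). DESeq2's Wald test did not call MVD in JeKo-1 (adjusted p = 0.122). MVK, FDPS and ACAT2, which make mevalonate phosphate, farnesyl diphosphate and acetoacetyl-CoA, had log2 fold changes between -0.19 and 0.01 in the lines and adjusted p-values of 0.176 to 0.928.

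From squalene to cholesterol, 7 of 10 genes fell and 1 rose in RL, and 5 fell and 1 rose in JeKo-1. DHCR7, the reductase of the last step, fell in both lines. Its level was 60.7 and 59.5 CPM in the RL controls and 37.5 and 34.8 CPM after treatment. In JeKo-1 DHCR7 went from 24.0 CPM to 17.2 and 17.1 CPM. The treated libraries lay below the controls in both lines, with log2 fold changes of -0.74 ± 0.06 (adjusted p = 2.27e-06) and -0.48 ± 0.09 (adjusted p = 3.02e-06). CYP51A1, the lanosterol demethylase, stood at 195 and 193 CPM in the RL controls and at 132 CPM in both treated libraries (-0.55 ± 0.04; adjusted p = 4.06e-06). In JeKo-1 CYP51A1 fell from 49.1 CPM to 37.7 and 37.5 CPM (-0.39 ± 0.07; adjusted p = 2.22e-06). FDFT1, the squalene synthase, fell by 0.32 ± 0.05 in RL and 0.25 ± 0.06 in JeKo-1 (adjusted p = 2.72e-04 and 8.98e-04). For DHCR7, CYP51A1 and FDFT1 the difference between the lines was not called (adjusted p = 0.0707, 0.129 and 0.493).

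SQLE, NSDHL and MSMO1 fell in RL and had a different response in JeKo-1. SQLE, the squalene epoxidase, stood at 142 CPM in both RL controls and at 105 and 104 CPM after treatment (-0.45 ± 0.05; adjusted p = 2.04e-05). In JeKo-1 SQLE was at 145 CPM in the control and 135 and 139 CPM after treatment (-0.09 ± 0.06; adjusted p = 0.349), and the difference of responses was 0.38 ± 0.08 (adjusted p = 0.00144). NSDHL, which with MSMO1 and HSD17B7 strips methyl groups from the sterol ring, went from 48.5 and 47.6 to 37.3 and 33.9 CPM in RL (-0.44 ± 0.06; adjusted p = 1.56e-04). It stood at 15.5 CPM in the JeKo-1 control and 16.1 and 15.8 CPM in the treated libraries, and the responses differed by 0.49 ± 0.11 (adjusted p = 0.00332). MSMO1, the methyl sterol oxidase, stood at 57.9 and 59.3 CPM in the RL controls and 42.3 and 44.1 CPM after treatment. In JeKo-1 MSMO1 was at 39.4 CPM in the control and higher in both treated libraries, at 46.9 and 44.7 CPM. Its log2 fold changes were -0.44 ± 0.05 in RL (adjusted p = 6.23e-05) and 0.22 ± 0.08 in JeKo-1 (adjusted p = 0.0174). The difference of 0.67 ± 0.09 (adjusted p = 2.75e-05) was the highest JeKo-1 minus RL value of the 31 genes. Like every such difference, it rests on the single JeKo-1 control, which no alternative left out. The JeKo-1 call of MSMO1 was lost in the 7-library model without treated replicate 1 (adjusted p = 0.107, against 0.0268 with every library) and under DESeq2 (adjusted p = 0.233), while the difference stayed called in all 11 alternatives.

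LSS, the cyclase that turns squalene epoxide into lanosterol, was the sterol gene that rose in RL. It stood at 70.5 and 66.7 CPM in the RL controls and at 92.8 and 84.0 CPM after treatment. In JeKo-1 it was at 49.3 CPM in the control and 41.0 and 44.6 CPM in the treated libraries. The treated values lay above the controls in RL and below the control in JeKo-1. The log2 fold changes were 0.36 ± 0.06 (adjusted p = 6.25e-04) and -0.20 ± 0.07 (adjusted p = 0.024), and they differed by -0.55 ± 0.10 (adjusted p = 4.77e-04). The 4 LSS transcripts, which largely repeat the same reads, ran from 0.31 to 0.36 in RL. The JeKo-1 call was lost with no filter (adjusted p = 0.0637), under DESeq2 (adjusted p = 0.35) and in the 7-library model with every library kept (adjusted p = 0.0789). In that model it was also not called without treated replicate 1 or 2 (adjusted p = 0.377 and 0.0741). LSS shares exon bases with 2 opposite-strand genes, AP001468.1 and AP001469.1, and since strand was not kept in the libraries, their reads cannot be told apart.

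The remaining members from squalene to cholesterol, HSD17B7, EBP and TM7SF2, had log2 fold changes within 0.30 of 0. HSD17B7 fell by 0.28 ± 0.08 in RL (adjusted p = 0.0181), a call lost without control replicate 1 or 2 (adjusted p = 0.0538 and 0.0749) and under DESeq2 (adjusted p = 0.0806). EBP, a sterol isomerase, fell in JeKo-1 by 0.30 ± 0.07 (adjusted p = 4.88e-04), from 47.3 to 38.8 and 38.2 CPM, a call that DESeq2 did not make (adjusted p = 0.0858). In RL it had a log2 fold change of -0.08 ± 0.05, with overlapping groups. TM7SF2, a sterol reductase, had 0.19 ± 0.08 in RL and -0.04 ± 0.10 in JeKo-1 and was not called (adjusted p = 0.0763 and 0.837).

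The fatty acid branch held both the members that rose most and several that fell in both lines. ELOVL6, the elongase that lengthens palmitate, stood at 9.80 and 9.53 CPM in the RL controls and at 20.9 and 19.4 CPM after treatment. In JeKo-1 its level was 39.8 CPM in the control and 54.4 and 51.1 CPM after treatment. The groups did not overlap in RL, and both treated JeKo-1 libraries lay above the single control. Its log2 fold change of 1.06 ± 0.08 in RL (adjusted p = 2.52e-06) was the largest rise of the 31 genes there, and in JeKo-1 it was 0.40 ± 0.07 (adjusted p = 7.77e-07). The rise was larger in RL, with a JeKo-1 minus RL difference of -0.64 ± 0.11 (adjusted p = 2.47e-04).

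AACS, which makes acetoacetyl-CoA from the ketone body acetoacetate for use in lipid synthesis, also rose in both lines. It stood at 21.3 and 21.4 CPM in the RL controls and at 32.9 and 30.4 CPM after treatment. In JeKo-1 it went from 27.0 CPM to 49.2 and 49.8 CPM. All treated values lay above the controls, with log2 fold changes of 0.56 ± 0.06 (adjusted p = 4.73e-05) and 0.87 ± 0.08 (adjusted p = 1.78e-26). The difference between the lines of 0.33 ± 0.10 was called (adjusted p = 0.0258), but the call was lost on leaving out RL control replicate 1 or 2, RL treated replicate 2 or JeKo-1 treated replicate 1 (adjusted p from 0.0535 to 0.1) and under DESeq2 (adjusted p = 0.066).

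ACACA, FASN, SCD and ACLY fell in both lines, ACLY and FASN in JeKo-1 with calls that depended on the test. ACACA, the acetyl-CoA carboxylase that commits carbon to fatty acids, stood at 74.4 and 75.2 CPM in the RL controls and at 48.2 and 47.2 CPM after treatment (-0.65 ± 0.05; adjusted p = 2.5e-06). In JeKo-1 ACACA went from 123 CPM to 105 and 102 CPM (-0.25 ± 0.07; adjusted p = 9.22e-04), and the fall was larger in RL by a tested difference of 0.41 ± 0.08 (adjusted p = 0.00102). FASN, the fatty acid synthase, went from 36.6 and 37.2 to 21.3 and 23.4 CPM in RL (-0.72 ± 0.06; adjusted p = 7.2e-06). In JeKo-1 it was at 29.01 CPM in the control and at 18.2 and 23.3 CPM after treatment, treated libraries that lay apart from each other (-0.48 ± 0.09; adjusted p = 5.21e-07). Without JeKo-1 treated replicate 1 the FASN change was -0.30 and without replicate 2 it was -0.65, and DESeq2's Wald test did not call it (adjusted p = 0.361). SCD, the desaturase that makes oleate, had the highest level per kilobase of transcript in the RL controls, 102 CPM per kilobase, among the 30 members with a known length. Its CPM went from 544 and 549 to 397 and 389.9 in RL and from 466 to 347 and 342 in JeKo-1. The log2 fold changes of SCD were -0.47 ± 0.05 and -0.44 ± 0.06 (adjusted p = 1.36e-05 and 3.41e-10), with a difference of 0.05 ± 0.07 that was not called (adjusted p = 0.707). ACLY, which splits citrate to supply acetyl-CoA to both branches, fell by 0.31 ± 0.05 in RL (adjusted p = 3.55e-04) and by 0.16 ± 0.06 in JeKo-1 (adjusted p = 0.0428). The JeKo-1 call of ACLY was lost in 7 of 8 alternatives, among them the 7-library model with every library kept (adjusted p = 0.0691) and without treated replicate 1 or 2 (adjusted p = 0.296 and 0.0733).

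FADS1 and FADS2, the desaturases of polyunsaturated fatty acids, fell in JeKo-1. FADS2 stood at 118 and 119.5 CPM in the RL controls and at 118 and 115 CPM after treatment. In JeKo-1 it went from 70.4 CPM to 42.3 and 45.4 CPM. The groups overlapped in RL (-0.02 ± 0.05, adjusted p = 0.773). The JeKo-1 log2 fold change was -0.68 ± 0.07 (adjusted p = 9.77e-21), and the responses differed by -0.65 ± 0.08 (adjusted p = 1.47e-05). FADS1 had -0.08 ± 0.05 in RL (adjusted p = 0.242) and -0.31 ± 0.06 in JeKo-1 (adjusted p = 1.42e-05), where it went from 132 to 105 and 107 CPM. The difference for FADS1 was not called (adjusted p = 0.0558). FADS1 and FADS2 share 490 exon bases on opposite strands in the GENCODE v29 annotation, so reads there cannot be assigned to either.

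**Figure D3:**
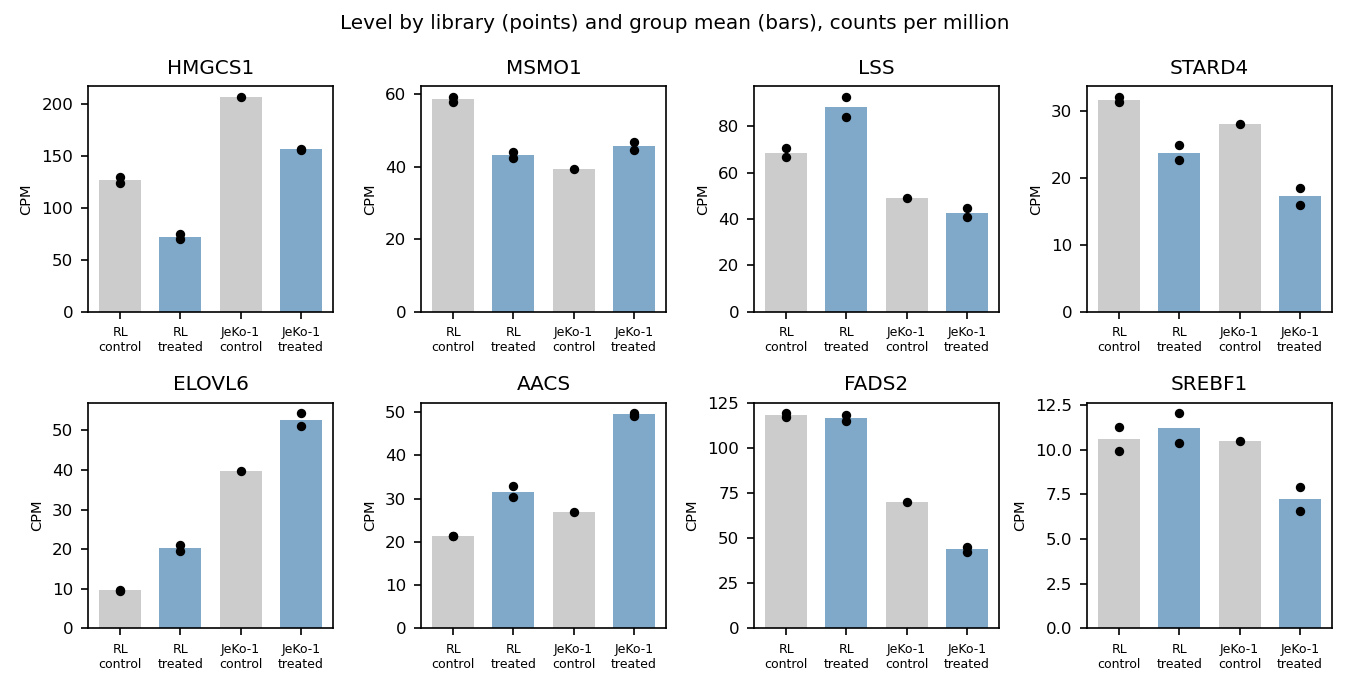
Levels in CPM of 8 members in the 4 groups; bars are group means, points are single libraries, and the JeKo-1 control is 1 library. HMGCS1 and STARD4 are lower and ELOVL6 and AACS higher after treatment in both lines, MSMO1 and LSS move in opposite directions, and FADS2 and SREBF1 are lower in treated JeKo-1.

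Among the regulators, the SREBP genes fell in JeKo-1 and were not called in RL. SREBF2, which encodes the SREBP that mainly drives sterol genes, stood at 52.9 and 52.4 CPM in the RL controls and 52.2 and 50.4 CPM after treatment. In JeKo-1 it went from 159 CPM to 124 and 130.3 CPM. Its log2 fold change was -0.04 ± 0.05 in RL (adjusted p = 0.602) and -0.32 ± 0.06 in JeKo-1 (adjusted p = 5.45e-06). The difference of -0.27 ± 0.08 was called (adjusted p = 0.0246), and lost its call without RL control replicate 1 or 2 or JeKo-1 treated replicate 1 (adjusted p = 0.0616, 0.079 and 0.0903), with RLE scaling (adjusted p = 0.0519) and under DESeq2 (adjusted p = 0.0884). SREBF1, whose SREBP mainly drives fatty acid genes, was at 11.3 and 9.94 CPM in the RL controls and 10.4 and 12.04 CPM in the treated libraries, which overlap. In JeKo-1 SREBF1 was at 10.5 CPM in the control and at 6.56 and 7.93 CPM after treatment. The JeKo-1 change was -0.53 ± 0.13 (adjusted p = 3.23e-04) and the difference between lines -0.61 ± 0.17 (adjusted p = 0.0167). In the 7-library model without JeKo-1 treated replicate 1 both calls were lost (adjusted p = 0.0984 and 0.103, against 0.00732 and 0.0167 with every library), and the difference was also lost without RL treated replicate 2 (adjusted p = 0.0683). DESeq2's Wald test called SREBF1 in neither comparison (adjusted p = 0.155 and 0.0918).

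INSIG1, the retention protein that is itself an SREBP target, fell in RL. Its level was 145 and 146 CPM in the RL controls and 110.4 and 121 CPM after treatment (-0.32 ± 0.05; adjusted p = 7.28e-04). In JeKo-1 INSIG1 stood at 83.5 CPM in the control and at 82.6 and 82.5 CPM after treatment, and the lines differed by 0.32 ± 0.08 (adjusted p = 0.0112). INSIG2, the second retention protein, was not called in either line (adjusted p = 0.837 and 0.137), and its treated RL libraries, at 17.0 and 24.0 CPM, lay on both sides of the controls at 19.7 and 20.7 CPM. INSIG2 in RL was called lower without treated replicate 2 (-0.25, adjusted p = 0.0467) and higher without treated replicate 1 (0.23, adjusted p = 0.0296). SCAP, the escort of SREBPs, had -0.08 ± 0.05 and -0.15 ± 0.07 (adjusted p = 0.262 and 0.124). STARD4, a cytosolic sterol carrier, fell in both lines, from 32.2 and 31.4 to 22.7 and 24.9 CPM in RL and from 28.1 to 18.6 and 16.0 CPM in JeKo-1. Its JeKo-1 log2 fold change of -0.70 ± 0.09 (adjusted p = 3.04e-13) was close to that of FADS2 and was -0.57 without treated replicate 2, and its RL value was -0.41 ± 0.06 (adjusted p = 4.97e-04).

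**Figure D4:**
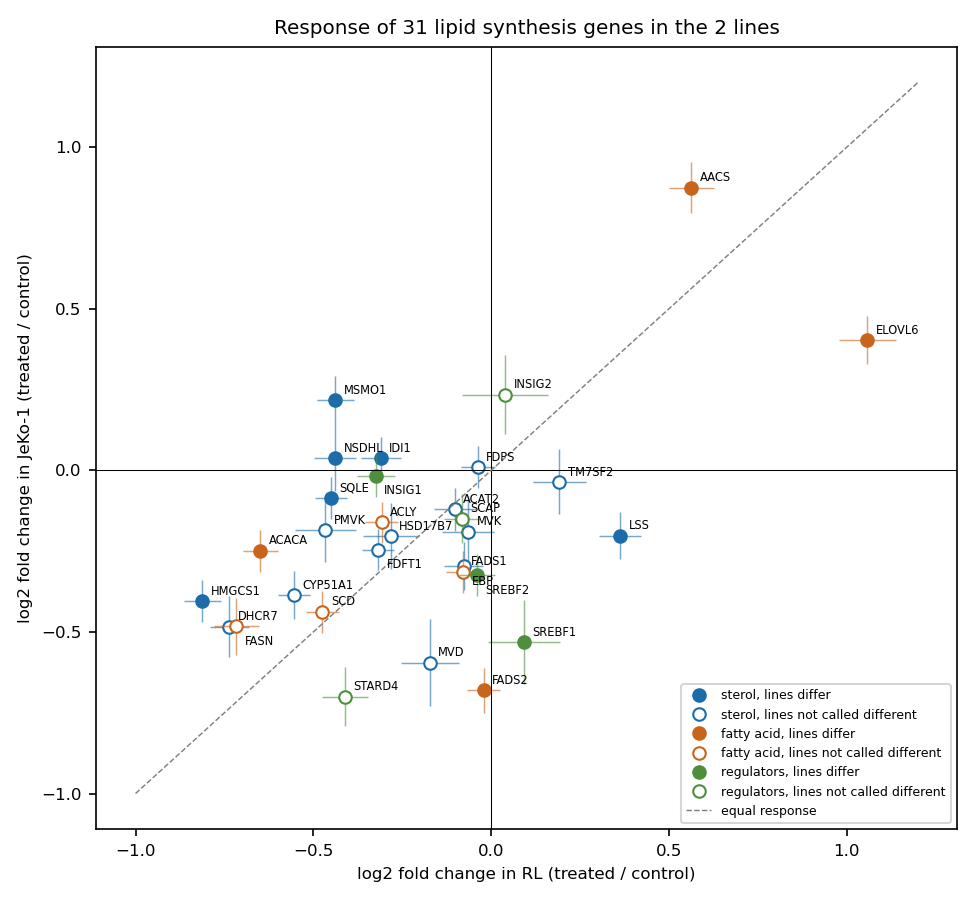
Log2 fold change of each gene in RL (x axis) and JeKo-1 (y axis), with standard errors as bars and the dashed line marking equal responses; filled symbols are the 13 genes whose responses were called different. AACS and ELOVL6 stand at the upper right, HMGCS1, DHCR7 and FASN at the lower left, and MSMO1 and LSS in the quadrants of opposite sign.

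Both lines had 16 falls among the 31 genes, and 9 genes were common to both sets. A positive difference of responses is a smaller fall or a larger rise in JeKo-1. It was called for 8 genes (HMGCS1, IDI1, SQLE, MSMO1, NSDHL, ACACA, AACS and INSIG1). Of these 8, 5 are sterol genes, as are 17 of the 31 genes. A negative difference was called for 5 (LSS, ELOVL6, FADS2, SREBF1 and SREBF2). All genes tested gave 8.82% positive and 8.95% negative calls.

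Genes of neighbouring lipid pathways were taken from lists. In RL 4 of 10 tested further genes of sterol and isoprenoid synthesis fell and 2 rose, and in JeKo-1 1 of 9 fell and 3 rose. For all tested genes the shares were 15.3% lower and 15.1% higher in RL and 14.9% lower and 13.4% higher in JeKo-1, and the counts of each list below are read against these. PDSS1, which makes the side chain of ubiquinone, fell by 0.51 ± 0.09 in RL (adjusted p = 0.00147).

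In the list of sterol uptake, storage and trafficking, 3 of 10 genes fell and 1 rose in RL, and 4 of 10 fell in JeKo-1. The lipoprotein receptor SCARB1 stood at 21.6 and 27.3 CPM in the RL controls and 11.8 and 12.3 CPM after treatment (-1.02 ± 0.10; adjusted p = 1.99e-05), and LRP8 fell by 0.56 ± 0.10 in JeKo-1 (adjusted p = 7.34e-08). Of 10 genes that process or degrade SREBPs, 2 rose in RL (20% against 15.1%), and in JeKo-1 1 rose (10% against 13.4%) and 2 fell (20% against 14.9%), shares near those of all genes. Of further fatty acid and lipid synthesis genes, 7 of 25 rose and 9 fell in RL, and 2 of 23 rose and 10 fell in JeKo-1. MID1IP1, which is known to stimulate acetyl-CoA carboxylase, rose in both lines, by 0.57 ± 0.07 in RL and 0.85 ± 0.07 in JeKo-1 (adjusted p = 1.21e-04 and 1.62e-29). The desaturase-like FADS3 rose by 0.52 ± 0.05 in RL and 0.32 ± 0.07 in JeKo-1 (adjusted p = 1.63e-05 and 5.47e-05). The malic enzyme gene ME1 fell by 0.53 ± 0.09 in RL (adjusted p = 6.81e-04) and had 0 counts in all 3 JeKo-1 libraries, which allows a level of up to 0.0760 CPM (3 counts per library). In JeKo-1 the elongase ELOVL5 and HSD17B12, a reductase of fatty acid elongation, each fell by 0.57 ± 0.08 (adjusted p = 7.68e-13 and 5.04e-11), and they also fell in RL, by 0.36 ± 0.06 and 0.29 ± 0.08. Of the genes of sterol efflux and LXR control, 2 of 6 tested rose in RL, and 1 of 7 rose and 1 fell in JeKo-1. The sterol exporter ABCG1 stood at 3.80 and 3.62 CPM in the RL controls and at 12.7 and 13.8 CPM after treatment (1.84 ± 0.10; adjusted p = 1.76e-07). In JeKo-1 ABCG1 had -0.03 ± 0.10 (adjusted p = 0.849), and the responses differed by -1.86 ± 0.14 (adjusted p = 2.54e-08). ABCA1, the exporter that loads apolipoprotein with cholesterol, rose by 1.31 ± 0.25 in RL, from at most 1.14 CPM, and by 0.24 ± 0.07 in JeKo-1 (adjusted p = 0.0021 and 0.00435).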

How the data were processed

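Libraries came from total RNA and Illumina's TruSeq RNA kit, which keeps no strand. The submitters' processing notes list CASAVA 1.8, BWA, Partek 6.6 and hg19, with no role given. In the deposited tables the authors give raw read counts for 34917 RefSeq transcripts. They also deposited log2 ratios of treated over control. For JeKo-1 that column's header names an ALK inhibitor, while the sample columns and labels name a BTK inhibitor. The ratios in the authors' deposited table had the sign of the fitted change for 31 of 31 members in RL and 29 of 31 in JeKo-1. The largest gap between ratio and fitted change was 0.0114 in RL and 0.121 in JeKo-1. That JeKo-1 gap was for HMGCS1, with a ratio of -0.525 and a fitted change of -0.404. The median of ratio minus fitted change was 0.00697 in RL and -0.0205 in JeKo-1.

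Counts of all transcripts were tested with edgeR 4.0.16 under R 4.3.3, with TMM scaling, the filterByExpr filter, the quasi-likelihood test and Benjamini-Hochberg adjustment. RL left 2 residual degrees of freedom and JeKo-1 only 1. Differences between lines came from all 7 libraries modelled as 4 groups. A standard error is the fold change on the log2 scale over the square root of F. CPM, taken over all transcripts, use each line's scaling factors. Alternatives were limma-voom (limma 3.58.1), DESeq2 1.42.0, RLE scaling, no filter, 1 transcript per gene, a replicate block, the 7-library model, a 1.5-fold minimum and leaving out a library. Procedures were tested on simulated data.

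The members and lists were chosen with earlier results of these data known. Any member may be named; from each other list, up to 3 called genes per line with an absolute log2 fold change of at least 0.5 are named, by smallest p. Some genes of these lists are not reported here. In GENCODE v29 (used also for lengths), 14 of 31 members share exon bases with an opposite-strand gene, and 6 have a named pseudogene that could share reads. The former include HMGCS1 (703 bases), IDI1 (643 bases) and SREBF1 (556 bases), and the latter include AACS. CYP51A1 also shares 2844 exon bases with AC000120.2 on the same strand.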

Additional observations from a re-analysis of the deposited data

Results flagged for a closer look

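The responses of 13 genes differed between the lines in the test of the difference itself (edgeR's quasi-likelihood test, 4-group model), given as JeKo-1 minus RL on the log2 scale. The value was 0.67 for MSMO1, 0.49 for NSDHL, 0.42 for HMGCS1, 0.41 for ACACA, 0.38 for SQLE, 0.36 for IDI1, 0.33 for AACS and 0.32 for INSIG1. It was -0.65 for FADS2, -0.64 for ELOVL6, -0.61 for SREBF1, -0.55 for LSS and -0.27 for SREBF2. Those of AACS, SREBF1 and SREBF2 lost their call on leaving out certain libraries. All 13 rest on the single JeKo-1 control, which could not be left out.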

How the results depend on the processing

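The counts of members that fell or rose stayed within 1.5 times the reported ones under RLE scaling, no filter, limma-voom, 1 transcript per gene and the model of all 7 libraries. With a 1.5-fold minimum, 4 members fell and 1 rose in RL, and 3 fell and 1 rose in JeKo-1. DESeq2's Wald test called 10 falls in JeKo-1 in place of 16, losing MVD, LSS, EBP, ACLY, FASN and SREBF1; the cause was not tested. Leaving out 1 library gave 15 to 17 falls and 3 to 4 rises in RL, 13 to 14 falls and 2 to 3 rises in JeKo-1 and 11 to 15 differences between lines. The JeKo-1 control could not be left out, and its treated libraries were left out within the 7-library model, which with every library kept already had 14 falls and 3 rises; there the lone sample is assumed to vary like the other groups. With replicate number as a block, RL again had 16 falls and 3 rises. Deviations of same-numbered RL libraries correlated at -0.0158 over 14932 genes, so no large shared deviation was seen. With 1 difference per group, this cannot tell whether same-numbered libraries were handled together. For all genes, DESeq2's Wald test called 1339 rises and 1617 falls in RL (2256 and 2287 reported) and 894 and 687 in JeKo-1 (1878 and 2092). Among the 31 genes, signs changed for values not called with all libraries, on leaving out a library: FADS2 in RL ranged from -0.048 to 8.0e-04, SREBF1 in RL from -0.0285 to 0.178, INSIG2 in RL from -0.246 to 0.235, INSIG1 in JeKo-1 from -0.0027 to 0.0068 and the difference for ACAT2 from -0.0811 to 0.0727 (0.0241 with RLE scaling and 0.0245 in DESeq2). The difference was called for FADS1 with no filter and in limma-voom (adjusted p = 0.0437 and 0.0471), for DHCR7 with RLE scaling (adjusted p = 0.0484) and for MVD with no filter (adjusted p = 0.0488). It was also called without JeKo-1 treated replicate 1 for FASN and STARD4 (adjusted p = 0.0274 and 0.049), without JeKo-1 treated replicate 2 for MVD (adjusted p = 0.0297) and without RL treated replicate 1 for DHCR7 and FADS1 (adjusted p = 0.0362 and 0.0339). Precision is limited by 1 JeKo-1 control and 2 libraries per other group. In JeKo-1 the standard error was 0.065 for SCD (13427 to 19954 counts) and 0.135 for MVD (221 to 415 counts). The part of read depth in this was not tested.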
